A study of Mus musculus with 4 samples.

Results

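The transcripts described here encode proteins that neutrophils pack into granules, together with the calcium-binding S100A8 and S100A9. They are 10 of the 16230 genes in the table, chosen by symbol: Elane, Mpo and Prtn3 for primary granules, Ngp, Camp, Ltf, Lcn2 and Mmp8 for secondary and tertiary granules, and S100a8 and S100a9 for the late stage. All 10 had a row and all passed the filter of a mean of at least 1 FPKM (fragments scaled for transcript length and for library depth). RNA came from splenic CD4 T cells, which the series calls CD3+CD4+, sorted from colitic Rag-/- mice 8 weeks after transfer of naive CD4 T cells. Donor cells were CD4creERafl/fl (2 libraries), in which Cre under Cd4 control was meant to remove estrogen receptor α, or ERafl/fl (2 libraries), which carry the floxed alleles without Cre. Every host was a Rag-/- mouse, which makes no T or B cells of its own but keeps its myeloid and NK cells, and every host was colitic. The labels give neither age nor sex, and are silent on whether each library is a mouse of its own. The p-values therefore describe library-to-library spread alone, and that spread may be technical.

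Esr1, the floxed gene, was listed at 0 and had 1.96 FPKM in the libraries labelled CD4creERafl/fl 1 and 2, and had 0.23 FPKM and was listed at 0 in ERafl/fl libraries 1 and 2. Its level does not check the genotype, and the libraries are called by their labels. An estimated 507000 and 565000 fragments lay behind the libraries labelled CD4creERafl/fl, and 707000 and 671000 behind the ERafl/fl libraries. Of 12896 genes tested in limma, 2 (0.0155%) were higher and 5 (0.0388%) were lower in the libraries labelled CD4creERafl/fl at an adjusted p under 0.05 (0.0543% either way), and 2050 (15.9%) differed at an unadjusted p under 0.05. Values without overlap between the groups occurred in 23.2% of genes in the higher and 25.7% in the lower direction. The median log2 difference of all tested genes was -0.07. By median difference, markers of T cells were lower and those of the other blood cells examined were higher in the libraries labelled CD4creERafl/fl, as given at the end.

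Neutrophil precursors make their granule proteins in sequence. Primary granules, with the serine proteases and myeloperoxidase, are filled at the promyelocyte stage, secondary and tertiary granules later, and transcripts of most granule proteins fall away as the cell matures. S100A8 and S100A9 join into calprotectin, a cytosolic protein that binds zinc and manganese, and their transcripts stay abundant in mature neutrophils and are also made by monocytes. T cells are not known as a main source of any of these proteins.

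Several members lie close together in the genome (positions from RefSeq on GRCm38, the assembly of the mm10 build that the submitters name). S100a8 (chromosome 3, 90669071 to 90670034, plus strand) and S100a9 (chromosome 3, 90692630 to 90695721, minus strand) are 22595 bases apart. Prtn3 (chromosome 10, 79879667 to 79883174) and Elane (chromosome 10, 79886312 to 79888216) are 3137 bases apart on the plus strand. Camp, Ngp and Ltf follow each other on chromosome 9, with 570351 bases between Camp and Ngp and 596279 between Ngp and Ltf. The S100 pair and Ngp varied alike over the libraries. Elane was also lowest in ERafl/fl library 1, but it rests on few fragments and lay further from S100a8 by the profile distance given below. The promoters of both late genes, of Ngp and of Elane are printed as examples. Lcn2, which lay nearer to S100a8 than Ngp by that distance, is not printed. Each is the RefSeq window from 250 bases before to 50 after the annotated start, 5′ to 3′ on the strand of the gene. Capitals mark a pair of letter patterns on either strand: AGGAAGT, the core bound by ETS factors such as PU.1, and TTNNGNAA, a loose form of the site bound by C/EBP factors.
S100a8 promoter (chr3:90668821-90669120, plus strand): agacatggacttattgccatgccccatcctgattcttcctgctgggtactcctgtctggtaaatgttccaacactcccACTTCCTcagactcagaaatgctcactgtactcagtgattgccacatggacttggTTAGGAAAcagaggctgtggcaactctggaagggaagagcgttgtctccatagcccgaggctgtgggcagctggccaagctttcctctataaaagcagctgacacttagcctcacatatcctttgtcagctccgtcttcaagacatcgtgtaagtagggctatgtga
S100a9 promoter (chr3:90695672-90695971, minus strand): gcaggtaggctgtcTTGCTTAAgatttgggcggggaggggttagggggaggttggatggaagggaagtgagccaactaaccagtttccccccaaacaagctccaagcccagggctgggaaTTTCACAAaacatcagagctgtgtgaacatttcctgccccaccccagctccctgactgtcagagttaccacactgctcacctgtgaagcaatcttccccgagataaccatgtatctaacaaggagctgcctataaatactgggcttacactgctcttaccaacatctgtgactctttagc
Ngp promoter (chr9:110419558-110419857, plus strand): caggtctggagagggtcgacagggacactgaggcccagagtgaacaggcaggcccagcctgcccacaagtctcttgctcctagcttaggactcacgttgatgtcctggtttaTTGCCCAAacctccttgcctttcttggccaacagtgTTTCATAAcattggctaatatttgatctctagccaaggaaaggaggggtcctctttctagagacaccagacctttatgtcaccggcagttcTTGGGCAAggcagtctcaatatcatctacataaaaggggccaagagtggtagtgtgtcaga
Elane promoter (chr10:79886062-79886361, plus strand): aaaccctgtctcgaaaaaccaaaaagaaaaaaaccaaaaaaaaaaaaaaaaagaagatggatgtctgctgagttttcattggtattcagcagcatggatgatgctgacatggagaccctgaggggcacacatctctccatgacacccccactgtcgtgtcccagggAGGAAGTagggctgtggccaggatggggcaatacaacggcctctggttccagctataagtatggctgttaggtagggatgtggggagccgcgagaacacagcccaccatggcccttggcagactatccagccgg
In these windows the ETS-type letters occur once for S100a8 and once for Elane, and the C/EBP-type letters once for S100a8, 2 times for S100a9 and 3 times for Ngp. Among all 10 members, AGGAAGT is present for 5, which include Elane, Mpo and Prtn3, and TTNNGNAA for 6, which include S100a8, S100a9 and 4 of the 5 secondary and tertiary genes. The patterns do not overlap in the windows printed. Of all 32851 promoter windows, 9.35% hold the first and 40.7% the second. These were 2 of 12 patterns looked at, and a match of letters is not a binding site.

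S100a8 and S100a9 were the most abundant members, and both were higher in each library labelled CD4creERafl/fl than in either ERafl/fl library. S100a8 had 2176 and 2525 FPKM in the libraries labelled CD4creERafl/fl 1 and 2, against 607 and 1448 FPKM in ERafl/fl libraries 1 and 2. S100a9 had 2505 and 3662 FPKM, against 915 and 2032 FPKM. The groups did not overlap for either gene, and ERafl/fl library 1 was the lowest for both. By mean FPKM, S100a9 ranked 9 and S100a8 ranked 19 of all genes. S100a9 alone made up 0.560% and 0.812% of the summed FPKM of the libraries labelled CD4creERafl/fl, against 0.206% and 0.452% in the ERafl/fl libraries. In limma, S100a8 had a log2 difference of 1.32 ± 0.44 (SE; libraries labelled CD4creERafl/fl minus ERafl/fl, on log2(FPKM + 1)), with an adjusted p of 0.248. S100a9 had 1.15 ± 0.44 (SE), with an adjusted p of 0.299, so neither passed. Counting error was small here: the estimated fragments of S100a8 were 503 and 650 in the libraries labelled CD4creERafl/fl and 196 and 443 in the ERafl/fl libraries, so the gap between both ERafl/fl libraries is beyond their exact 95% Poisson intervals (170 to 225 and 403 to 486 fragments). Without ERafl/fl library 1 the log2 differences were 0.69 for S100a8 and 0.58 for S100a9. Since RNA was measured in bulk, more neutrophils or monocytes and more of these transcripts per cell cannot be told apart.

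**Figure D1:**
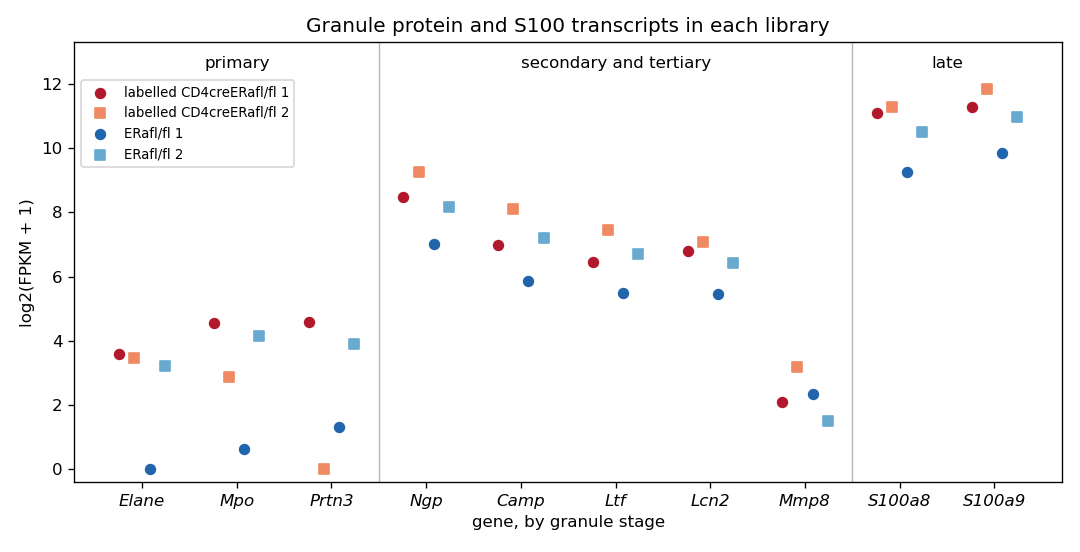
Each point is 1 library, with log2(FPKM + 1) on the y axis and the 10 genes on the x axis in order of granule stage. S100a8, S100a9, Ngp, Camp, Ltf and Lcn2 are lowest in ERafl/fl library 1. Elane, Mpo, Prtn3 and Mmp8 lie near the bottom with no order common to them all, and of these Elane and Mpo are also lowest in ERafl/fl library 1.

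The abundant secondary granule transcripts followed the S100 pair, with overlap between groups for Camp and Ltf. Ngp, a granule protein of the cystatin and cathelicidin families (NCBI gene 18054), had 355 and 619 FPKM in the libraries labelled CD4creERafl/fl, against 130 and 287 FPKM in the ERafl/fl libraries. Lcn2, a lipocalin that withholds iron by binding bacterial siderophores (chromosome 2, 32384637 to 32387739), had 111 and 134 FPKM, against 43.2 and 85.1 FPKM. Neither gene overlapped between groups, and ERafl/fl library 2 was the nearer of the ERafl/fl libraries for both. Camp, which encodes the precursor of the antimicrobial peptide CRAMP (chromosome 9, 109847377 to 109849456), had 126 and 276 FPKM, against 57.7 and 147 FPKM. Ltf, the iron-binding lactoferrin (chromosome 9, 111019292 to 111042766), had 87.8 and 173 FPKM, against 43.8 and 103 FPKM. For these 2 genes ERafl/fl library 2 lay above the library labelled CD4creERafl/fl 1. The log2 differences were 1.27 ± 0.48 for Ngp, 0.99 ± 0.40 for Lcn2, 1.01 ± 0.58 for Camp and 0.86 ± 0.53 for Ltf (SE), and the adjusted p in limma was 0.293, 0.314, 0.456 and 0.487. In each of these genes library 2 was above library 1 within both groups. Without ERafl/fl library 1 the log2 differences were 0.71 for Ngp, 0.51 for Lcn2, 0.34 for Camp and 0.25 for Ltf, and without the library labelled CD4creERafl/fl 2 they were 0.87, 0.86, 0.44 and 0.38.

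Mmp8, the neutrophil collagenase (chromosome 9, 7558429 to 7568486), did not share this order. It had 3.25 and 8.02 FPKM in the libraries labelled CD4creERafl/fl, against 4.08 and 1.84 FPKM in the ERafl/fl libraries. The groups overlapped, and the fragments behind these values were few, at about 3.95 and 10.8 in the libraries labelled CD4creERafl/fl, against 6.91 and 2.96 in the ERafl/fl libraries. Its log2 difference was 0.70 ± 0.60 (SE, adjusted p = 0.598 in limma).

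Primary granule transcripts were low and did not follow the groups. Elane, neutrophil elastase, had 11.1 and 9.97 FPKM in the libraries labelled CD4creERafl/fl, against a value listed at 0 and 8.37 FPKM in the ERafl/fl libraries. The 3 values above 0 stand for about 5.38, 5.37 and 5.36 fragments, so that the groups do not overlap in FPKM while these 3 libraries hold the same estimated number of fragments. For ERafl/fl library 1 the exact 95% Poisson interval of a count of 0 reaches 3.69 fragments, or 5.47 FPKM. Mpo, myeloperoxidase, which makes hypochlorous acid from hydrogen peroxide (chromosome 11, 87793784 to 87804412), had 22.5 and 6.26 FPKM, against 0.56 and 16.9 FPKM. Prtn3, the elastase-like proteinase 3, had 22.8 FPKM and a value listed at 0, against 1.49 and 14.1 FPKM. Both genes were high in the library labelled CD4creERafl/fl 1 and in ERafl/fl library 2 and low in the other library of each group. Mpo stood at an estimated 31 and 9.61 fragments in the libraries labelled CD4creERafl/fl, against 1.08 and 30.9 in the ERafl/fl libraries, with exact 95% Poisson intervals of 21.1 to 44.0 and 4.8 to 18.4 fragments, against 0.0253 to 5.57 and 21.1 to 44.0. The spread within each group was thus wider than counting error for Mpo.

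In limma the log2 differences of the primary granule genes were 1.91 ± 1.05 for Elane, 1.30 ± 1.23 for Mpo and -0.33 ± 1.63 for Prtn3 (SE), with adjusted p of 0.438, 0.636 and 0.941. The differences of Mpo and Prtn3 changed sign when single libraries were left out: Mpo had -0.46 without ERafl/fl library 1, and Prtn3 had 0.97 without ERafl/fl library 2 and 1.96 without the library labelled CD4creERafl/fl 2. Elane had 0.30 without ERafl/fl library 1 and 3.53 without ERafl/fl library 2. Mpo shares 512 bases of exon with Gm11505, and Prtn3 159 bases with Plppr3, each on the opposite strand. Plppr3 itself had 199 and 230 FPKM in the libraries labelled CD4creERafl/fl, against 371 and 316 FPKM in the ERafl/fl libraries. Mpo and Prtn3 are uncertain, because no source used here says how reads were assigned by strand. The other 8 members share no exon bases with another annotated gene in GENCODE M21, and no stretch of at least 100 bases at 95% identity or more.

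**Figure D2:**
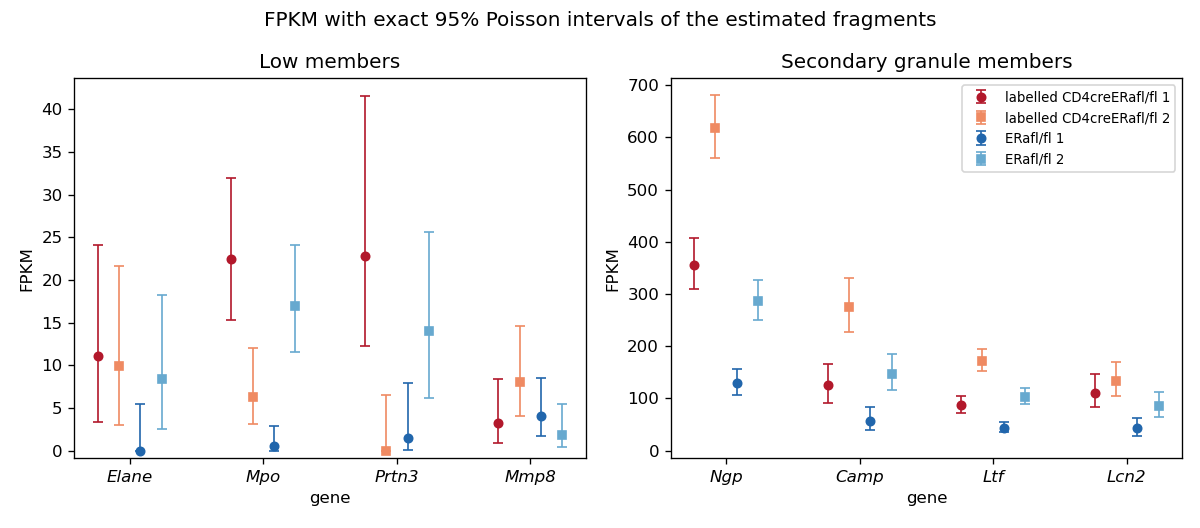
FPKM on the y axis for the 4 low members (left) and 4 secondary granule members (right), 1 point per library, with exact 95% Poisson intervals of the estimated fragments as bars. Elane and Mmp8 intervals overlap over most libraries, while Ngp in the library labelled CD4creERafl/fl 2, at 619 FPKM, stands clear of ERafl/fl library 1, at 130 FPKM. The bars cover counting error only.

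Set over all 10 members, 0 passed the adjusted threshold in either direction, beside 0.0543% of all genes tested. The mean of log2(FPKM + 1) was higher in the libraries labelled CD4creERafl/fl for 9 of the 10, all but Prtn3, beside 46.4% of all genes. The mean FPKM of Prtn3 was 11.4 in the libraries labelled CD4creERafl/fl, against 7.78 in the ERafl/fl libraries. The 4 members at an unadjusted p under 0.05 were S100a8, S100a9, Ngp and Lcn2 (beside 15.9% of all genes tested), and these 4 with Elane were the 5 that did not overlap in the higher direction (beside 23.2%). No member lay without overlap in the lower direction. By stage, the median log2 difference was 1.30 for primary granule genes, 0.99 for secondary and tertiary genes and 1.24 for the late genes. Without ERafl/fl library 1 these medians were -0.46, 0.51 and 0.63, so that the primary one changed sign. Without ERafl/fl library 2 the primary median was 3.06, and it was 0.46 without the library labelled CD4creERafl/fl 1 and 1.98 without the library labelled CD4creERafl/fl 2. The median of the secondary and tertiary genes was 0.44 without the library labelled CD4creERafl/fl 2. An exact permutation test of a single gene in 2 against 2 libraries cannot give a two-sided p below 0.333, so none is given. With voom weights on estimated fragments, an alternative added after the data were seen, limma called 165 genes (2.03%) higher and 50 (0.616%) lower of 8115 tested. None of the 10 members was among them. S100a8 came closest, with an adjusted p of 0.0864, and Ngp had 0.127 and S100a9 0.126. Scaling each library to T cell genes instead moved the median of all genes to 2.32 and brought 9 members past the threshold in the higher direction, all but Prtn3, where it called 76% of the 12896 genes tested higher (9798) and 0.233% lower (30).

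Ratios of FPKM within a library, which do not depend on how the library was scaled, varied little among the late and the abundant secondary granule genes. The S100a9 to S100a8 ratio of FPKM was 1.15 and 1.45 in the libraries labelled CD4creERafl/fl, against 1.51 and 1.40 in the ERafl/fl libraries. S100a9 took 55.2% of the fragments of the pair in the library labelled CD4creERafl/fl 1 (exact 95% Clopper-Pearson interval 52.3% to 58.2%) and 60.9% in the library labelled CD4creERafl/fl 2 (58.5% to 63.2%). It took 61.7% in ERafl/fl library 1 (57.4% to 65.9%) and 60.1% in ERafl/fl library 2 (57.1% to 63.0%). The first of these libraries was the lowest. Its interval overlaps those of both ERafl/fl libraries but not that of the library labelled CD4creERafl/fl 2.

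Ngp stood at 0.163 and 0.245 of S100a8 in the libraries labelled CD4creERafl/fl, against 0.214 and 0.198 in the ERafl/fl libraries. Camp stood at 0.354 and 0.446 of Ngp, against 0.444 and 0.513. Ltf stood at 0.247 and 0.279 of Ngp, against 0.337 and 0.360, so this ratio was lower in both libraries labelled CD4creERafl/fl. As a share of Ltf and Ngp fragments together, Ltf took 36.0% (30.9% to 41.4%) and 38.8% (35.1% to 42.6%) in the libraries labelled CD4creERafl/fl, against 43.5% (36.4% to 50.8%) and 45.1% (lower bound 40.2%) in the ERafl/fl libraries. The intervals of the groups overlap. An exact two-sided permutation test over 2 against 2 libraries cannot give a p below 0.333, so none is given for this ratio. On log2(FPKM + 1), the median of the secondary and tertiary genes minus that of the late genes was -4.39 and -4.13 log2 units in the libraries labelled CD4creERafl/fl, against -4.06 and -4.04 in the ERafl/fl libraries.

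The primary granule genes varied against the secondary ones by far more. Mpo stood at 0.0633 and 0.0101 of Ngp in the libraries labelled CD4creERafl/fl, against 0.00431 and 0.0590 in the ERafl/fl libraries. The FPKM ratio of Mpo to Ngp spanned 3.88 log2 units over the 4 libraries, where that of Camp to Ngp spanned 0.54 and that of Ngp to S100a8 0.59. The libraries labelled CD4creERafl/fl 1 and ERafl/fl 2 were high, and the other library of each group was low. The summed FPKM of Elane, Mpo and Prtn3 was 56.4 and 16.2 in the libraries labelled CD4creERafl/fl, against 2.05 and 39.4 in the ERafl/fl libraries.

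**Figure D3:**
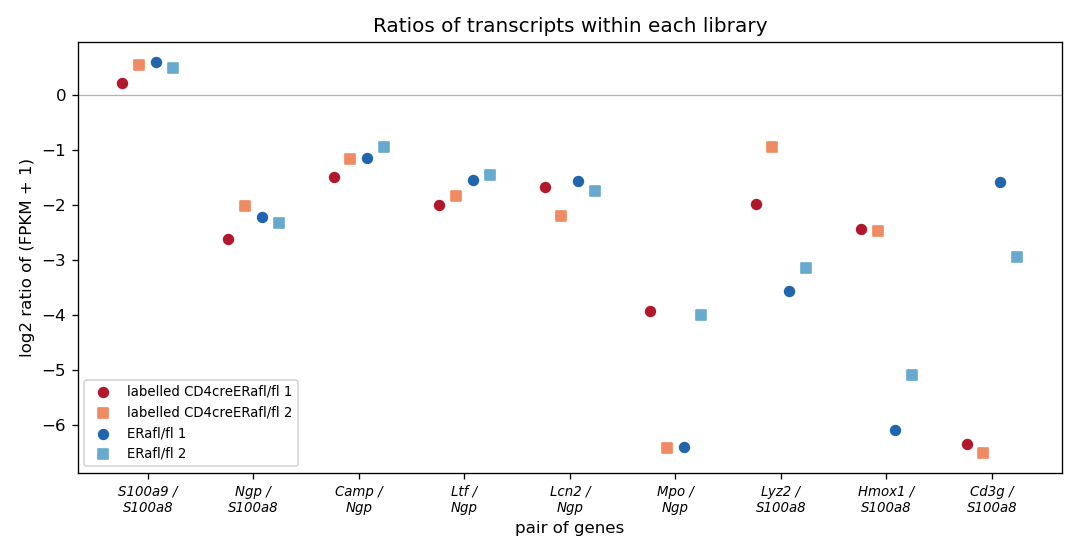
Log2 ratios of (FPKM + 1) on the y axis for 9 pairs of genes on the x axis, 1 point per library. The first 5 pairs, among late and secondary granule genes, span at most 0.63 log2 units, while Mpo over Ngp spans 2.49 and the ratios of Lyz2, Hmox1 and Cd3g to S100a8 span 2.60, 3.64 and 4.92.

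Likeness of profiles was measured as the root mean square distance between log2(FPKM + 1) values, each centred on its mean over the 4 libraries, among 7501 other genes with a mean of at least 5 FPKM. Nearest to S100a8 were St3gal4, a sialyltransferase (distance 0.07), Ptms (0.08), Taldo1, an enzyme of the pentose phosphate pathway (0.08), Cdan1 (0.11) and Colgalt1 (0.11). St3gal4, Cdan1, Colgalt1, Scpep1 and Bcl11a share exon bases with genes on the opposite strand, and Cdan1 also shares 3409 bases with Ttbk2 on its own strand. S100a9 lay at 0.15, with 17 of the 7501 genes closer, Lcn2 at 0.19 with 42 closer, and Ngp at 0.21 with 51 closer. Ltf and Camp lay at 0.35 and 0.36, Elane at 0.77, Mmp8 at 0.86, Mpo at 1.05 and Prtn3 at 1.94. Nearest to Elane were Scpep1 (0.14), Bcl11a (0.17), Lmo2, a factor of blood progenitors (0.19), Gstm1 (0.19) and Car1, a carbonic anhydrase of red cells (0.19), while Mpo lay at 0.64 with 125 closer. Car1 had 37.2 and 30.4 FPKM in the libraries labelled CD4creERafl/fl, against 1.23 and 21.9 FPKM in the ERafl/fl libraries. The 4 values of each profile are few, so these distances describe the libraries only.

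Other granulocyte genes were grouped by role, and in no group did a gene pass the adjusted threshold in either direction. The counts without overlap below stand beside 23.2% of all genes tested in the higher and 25.7% in the lower direction. Among other secondary and tertiary granule genes, 7 of 11 tested were higher without overlap and 0 lower, with a median log2 difference of 1.12. Chil3, a chitinase-like granule protein, had 74.4 and 175 FPKM in the libraries labelled CD4creERafl/fl, against 36.6 and 54.1 FPKM in the ERafl/fl libraries, and stood at 0.189 to 0.282 of Ngp over the 4 libraries. Lyz2, a lysozyme that macrophages also make, had 548 and 1304 FPKM, against 50.7 and 162 FPKM, and shares 1264 bases with Lyz1, so its value is uncertain. Cyba, a subunit of the phagocyte oxidase, had 117 and 187 FPKM, against 98.9 and 142 FPKM, with overlap between the groups. Cyba shares sequence with 18 other genes, which leaves it uncertain. On log2(FPKM + 1), Lyz2 relative to S100a8 was higher by 1.88 in the libraries labelled CD4creERafl/fl.

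A list set beside the primary granule genes, not confined to primary granule proteins, held 4 tested genes. Of these, 2 were higher (Prss57 and Hp) and 1 lower (Cst7) without overlap. Prss57, a serine protease of primary granules, had 80.5 and 49.8 FPKM in the libraries labelled CD4creERafl/fl, against 7.43 and 11.7 FPKM in the ERafl/fl libraries (adjusted p = 0.12 in limma), and shares 1157 bases of exon with Fstl3 on the opposite strand. Hp, haptoglobin, had 25.2 and 43.6 FPKM, against 6.37 and 15.6 FPKM. Cst7, a cystatin that cytotoxic lymphocytes also express, had 6.20 and 5.57 FPKM, against 17.8 and 17.1 FPKM. Ctsg, cathepsin G, was listed at 0 and had 3.60 FPKM, against 2.88 and 3.02 FPKM, with no shared order with Prss57.

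Of 5 tested S100 and cystatin relatives, 1 was higher and 1 lower without overlap, which is near the 23.2% and 25.7% of all genes, and their median log2 difference was 0.05. S100a11 had 265 and 490 FPKM in the libraries labelled CD4creERafl/fl, against 145 and 149 FPKM in the ERafl/fl libraries, and its log2 difference of 1.29 was close to that of S100a8. S100a4, also made by memory T cells, had 288 and 289 FPKM, against 302 and 258 FPKM. S100a10, the partner of annexin A2, had 92.8 and 83.3 FPKM, against 239 and 282 FPKM, so the groups lay apart in the opposite direction to S100a8. S100a4 shares exon bases with Gm42674.

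Of 7 tested granulocyte transcription factors 5 were higher and 1 lower without overlap, with a median log2 difference of 2.15. Cebpb had 75.5 and 79.7 FPKM in the libraries labelled CD4creERafl/fl, against 11.4 and 15.97 FPKM in the ERafl/fl libraries (adjusted p = 0.1 in limma). Spi1, which encodes PU.1, had 69.7 and 58.9 FPKM, against 5.89 and 16.5 FPKM, and Cebpd had 20.3 and 15.8 FPKM, against 1.90 and 5.32 FPKM. These 3 factors also act in monocytes and macrophages. Cebpe, which is needed for secondary granule genes, had 11.4 and 8.80 FPKM, against 1.17 and 3.69 FPKM. Gfi1, the factor that was lower without overlap, had 3 and 2.7 FPKM, against 6.8 and 5.66 FPKM. Cebpb and Cebpd overlap exons of Tmem189 and Spidr on the opposite strand.

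Of 13 tested granulocyte surface receptors 9 were higher and 1 lower without overlap (median log2 difference 1.42). Csf3r, the receptor for granulocyte colony-stimulating factor, had 110 and 194 FPKM in the libraries labelled CD4creERafl/fl, against 64.5 and 57.0 FPKM in the ERafl/fl libraries. Cxcr2, the chemokine receptor of neutrophils, had 340 and 222 FPKM, against 240 and 216 FPKM. Csf3r and Cxcr2 share sequence with 132 and 111 other genes, which leaves both uncertain.

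Among 7 tested mature neutrophil genes, 4 were higher and 0 lower without overlap (median 0.69). Il1b had 65.8 and 120 FPKM in the libraries labelled CD4creERafl/fl, against a value listed at 0 and 11.3 FPKM in the ERafl/fl libraries. Slpi, an inhibitor of neutrophil elastase, had 43.5 and 98.7 FPKM, against a value listed at 0 and 8.62 FPKM, and Wfdc17 had 61.3 and 39.3 FPKM, against 3.14 and 19.8 FPKM. Retnlg, G0s2 and Asprv1 overlapped between the groups, with Retnlg at 27.4 and 30.7 FPKM, against 12.3 and 28.4 FPKM. Which cells made these transcripts was not tested. Of 5 tested inhibitors of granule proteases 2 were higher and 0 lower without overlap, with a median log2 difference of 1.16. Serpina3g had 51.8 and 49.2 FPKM, against 40.6 and 74.1 FPKM, and Serpina1a had 169 and 51.6 FPKM, against 73.4 and 22.9 FPKM, with close paralogs for both.

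Of 9 tested receptors and binding partners of these proteins, 5 were higher and 3 lower without overlap (median 0.73). The shares over all genes tested were 23.2% and 25.7%. Itgam, the integrin chain CD11b, had 34.2 and 54.3 FPKM in the libraries labelled CD4creERafl/fl, against 4.42 and 13.4 FPKM in the ERafl/fl libraries. Cd33 had 62.6 and 46.3 FPKM, against 33.0 and 31.3 FPKM. Emb, a membrane protein reported to bind S100A8/A9, had 35.7 and 54.5 FPKM, against 77.4 and 66.9 FPKM. Itgam shares 3450 exon bases with Gm49368, and Emb 686 with Gm17509. Tlr4, a receptor of S100A8/A9, had 2.5 and 2.24 FPKM, against 0.18 and 0.56 FPKM, and Ager, which encodes the receptor RAGE, had 1.51 and 2.72 FPKM, against 4.18 and 3.29 FPKM. These last 2 genes stand at a few fragments in each library.

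Defining markers of neutrophils differed widely in level. Of 9 tested neutrophil markers 5 were higher and 1 lower without overlap, and 0 passed, with a median log2 difference of 0.98. For this and the marker lists below, the shares without overlap over all genes tested were 23.2% higher and 25.7% lower. Their summed FPKM was 506 to 521 in the libraries labelled CD4creERafl/fl and 325 to 336 in the ERafl/fl libraries, most of it from Cxcr2 and Csf3r. Ly6g, the neutrophil surface antigen, had 6.65 and 5.97 FPKM, against a value listed at 0 and 1.67 FPKM. For scale, 3 fragments on 1000 bases give 6.10 and 5.48 FPKM in the libraries labelled CD4creERafl/fl 1 and 2. Il1r2, lower without overlap, had 4.45 and 3.99 FPKM, against 7.46 and 4.47 FPKM, and Retnlg, given above, overlapped. Mrgpra2b had 1.44 FPKM in the library labelled CD4creERafl/fl 2 and was listed at 0 in the other 3 libraries.

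Markers of monocytes, macrophages and T cells had larger median differences than the members. Of 12 monocyte and macrophage markers 10 were higher and 0 lower without overlap, with a median log2 difference of 3.78, and their summed FPKM was 1498 to 1781 in the libraries labelled CD4creERafl/fl and 69.1 to 308 in the ERafl/fl libraries. Hmox1, the heme oxygenase, had 399 and 453 FPKM, against 7.94 and 41.6 FPKM, and C1qa had 349 and 194 FPKM, against 2.70 and 38.2 FPKM. Ccr2 and Ly6c2 in this list overlapped between the groups. Ccr2 had 12.4 and 31.2 FPKM, against 31.3 and 31.2 FPKM (log2 difference -0.64), and Ly6c2 had 21.1 and 24.7 FPKM, against 4.05 and 38.1 FPKM. None of these markers was at 0 in both ERafl/fl libraries. Hmox1 stood at 0.183 and 0.180 of S100a8 in the libraries labelled CD4creERafl/fl, against 0.0131 and 0.0288 in the ERafl/fl libraries. All 12 T cell markers tested were lower without overlap, with a median of -2.68 and a summed FPKM of 323 to 403 in the libraries labelled CD4creERafl/fl and 1323 to 1617 in the ERafl/fl libraries. Cd247 had 102 and 75.9 FPKM, against 213 and 237 FPKM, and Cd3d had 124 and 70.9 FPKM, against 177 and 146 FPKM. Cd247 shares 3007 bases of exon with Pou2f1 on the opposite strand. The part of these cell types in the levels of S100a8, S100a9 and the granule genes was not tested.

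The remaining marker lists also held no gene past the threshold. The median log2 difference was 1.35 for early myeloid progenitors (5 tested, 2 higher without overlap, summed FPKM 87.8 to 106 in the libraries labelled CD4creERafl/fl and 14.3 to 28.9 in the ERafl/fl libraries). In that list Cd34 had 1.62 and 0.68 FPKM, was listed at 0 in both ERafl/fl libraries, and did not pass the filter. Flt3 had 15.1 and 22.4 FPKM, against a value listed at 0 and 6.93 FPKM. Kit, Myb and Ctsg, also tested, overlapped between the groups. Prss57, given above, was the highest of them. Eosinophil, basophil and mast cell markers had a median of 0.51 (6 tested, 2 higher and 1 lower without overlap, summed FPKM 66.97 to 87.8 and 13.8 to 24.9), and the eosinophil peroxidase gene Epx was listed at 0 in all 4 libraries. Ear2, which has close relatives, had 52.9 and 68.4 FPKM, against a value listed at 0 and 15.2 FPKM, and Prss34 had 4.99 and 7.47 FPKM, against 2.39 and 3.76 FPKM.

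Erythroid markers had a median log2 difference of 1.95, with 1 of 9 higher without overlap. Their summed FPKM was 5100 and 6498 in the libraries labelled CD4creERafl/fl 2 and 1, against 215 and 8184 in ERafl/fl libraries 1 and 2. Hbb-bs had 2744 and 2227 FPKM, against 83.3 and 3579 FPKM, and Hba-a1 had 2558 and 2283 FPKM, against 98.0 and 3354 FPKM. ERafl/fl library 1 was thus the lowest of the 4 for these globins, as it was for S100a8, S100a9, Ngp, Camp, Ltf, Lcn2, Elane and Mpo. NK cell markers had a median of 3.14 (6 tested, 5 higher and 1 lower without overlap, summed FPKM 81.0 to 151 and 27.1 to 46.8), with Ncr1, Klra8 and Klre1 listed at 0 in both ERafl/fl libraries. Gzma had 32.6 and 94.3 FPKM, against a value listed at 0 and 12.3 FPKM, and Eomes 16.5 and 17.5 FPKM, against 27.1 and 33.3 FPKM. Dendritic cell markers had a median of 2.79 (7 tested, 4 higher and 1 lower without overlap, summed FPKM 215 to 233 and 76.5 to 122), with Itgax at 48.9 and 56.9 FPKM, against 1.06 and 23.8 FPKM, and Xcr1 at 46.7 and 48.5 FPKM, against 73.4 and 62.8 FPKM. Xcr1 shares sequence with 23 other genes, which leaves it uncertain. B and plasma cell markers were low (2 tested, 1 higher without overlap, summed FPKM 7.71 to 8.82 and 0.68 to 11.2), with Cd79b at 6.76 and 4.55 FPKM, against a value listed at 0 and 8.91 FPKM, and Jchain at 0.95 and 3.40 FPKM, against 0.68 FPKM and a value listed at 0.

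**Figure D4:**
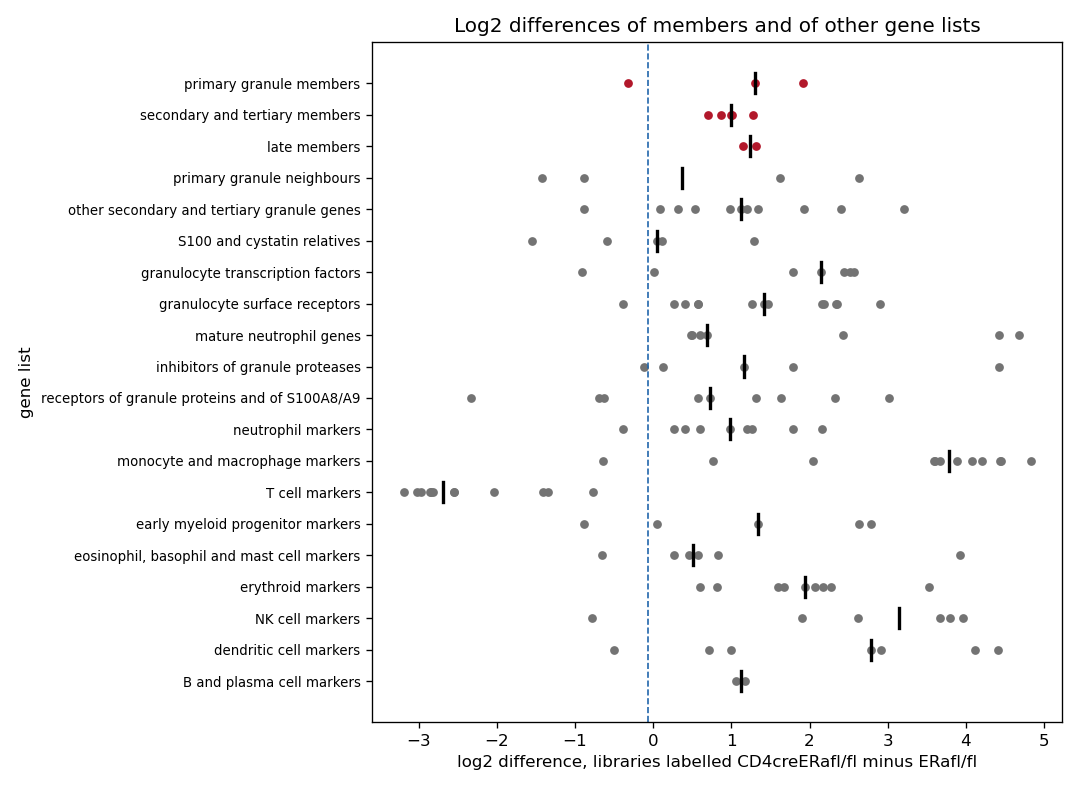
Log2 differences (x axis, libraries labelled CD4creERafl/fl minus ERafl/fl, on log2(FPKM + 1)) of each tested gene, by list (y axis). Red points are the members by stage, grey points other genes, black bars list medians, and the dashed line the median of all genes tested, -0.07. The members' stage medians, 0.99 to 1.30, lie between the T cell markers at -2.68 and the monocyte and macrophage markers at 3.78.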

How the data were processed

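The table holds FPKM values that the authors computed and deposited, 1 column per library, for 16230 genes. The submitters' processing notes list mm10 with HISAT, Bowtie2 and RSEM. Versions, settings and strand use are not given in the sources used. Gene identifiers were matched to RefSeq on GRCm38.p6, and 23 symbols turned into dates were restored. Fragments were estimated for 11611 genes whose listed transcripts have a single length in GENCODE M21: FPKM times length (less 30 bases) falls on multiples of 1 fragment, and 78.6% to 80.4% of low values lay within 0.2 of a whole number, where other steps gave a median of 34.5% to 40.4%. Intervals from these fragments reflect counting alone.

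The test was limma 3.58.1 (R 4.3.3), two-sided, of the 12896 genes averaging 1 FPKM or more. Values were log2(FPKM + 1), the model held only the group, variances followed a mean trend, and p-values were adjusted by Benjamini-Hochberg over all genes, at 0.05. Alternatives changed the pseudocount, scaling, filter, trend and block, left out each library, or used voom, which was added after the data were seen. The procedure was also run on simulated counts as a self-test, which does not show how it behaves with the spread of these libraries. Fold changes on this scale understate those of low genes. Shared sequence was searched with BLAST 2.17.0 on GENCODE M21 transcripts. The members, gene lists and tests were chosen with earlier results of these data known. Named genes were all members, the 3 highest of each role list and 2 highest of each marker list by mean FPKM, Esr1, and the 5 profiles nearest to S100a8 and to Elane. Genes in ratios, overlap partners and genes at 0 were named after their values were seen. So were Cebpe, Gfi1, Ctsg, Kit, Myb, Ly6g, Mrgpra2b, Retnlg, G0s2, Asprv1, Il1r2, Ccr2, Ly6c2, Tlr4 and Ager. One gene that the rule names is not reported here.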

Additional observations from a re-analysis of the deposited data

How the results depend on the processing

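Counts of genes called over the whole table moved most. For genes higher and lower in the libraries labelled CD4creERafl/fl (2 and 5), a pseudocount of 0.1 FPKM, no filter, no trend, the replicate block or leaving out any single library gave 0 and 0, with 1813, 2266, 1996, 1888 and 1136 to 2048 genes at an unadjusted p under 0.05 in limma. Quantile scaling gave 1 higher, a mean FPKM of at least 5 gave 0 higher (1447 at an unadjusted p under 0.05 in either direction), and voom weights gave 165 and 50. Scaling to T cell genes gave 9798 and 30 and moved the median log2 difference of all genes to 2.32. Under it 9 members passed, all but Prtn3, and S100a8 stood 1.83 above that median, against 1.39 in the unscaled table.

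Under that scaling the stage medians were 3.40 (primary), 3.77 (secondary and tertiary) and 4.07 (late), and Prtn3 turned to 1.32. Leaving out 1 library gave stage medians of -0.46 to 3.06 (primary), 0.44 to 1.47 (secondary and tertiary) and 0.63 to 1.84 (late). It gave log2 differences of -0.46 to 3.06 for Mpo and -2.61 to 1.96 for Prtn3. In the remaining 126 of 139 member values the direction and the side of the threshold were those reported. The cause of these changes was not tested. Equal replicate numbers did not deviate together (r = -0.00161 over 12896 genes), so the block joins libraries that share only a number, and in it 0 members passed. Elane, Prtn3 and Mmp8 rest on 12 or fewer fragments in any library, so their values carry wide counting intervals.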
